A study of Drosophila melanogaster with 69 samples.

Results

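The genes described here encode the subunits of oxidative phosphorylation in the gonads of *Drosophila melanogaster*. They were taken by symbol: every gene whose FlyBase symbol begins with ND-, COX, UQCR-, ATPsyn or Sdh, together with the mitochondrial genes mt:ND, mt:Co, mt:ATPase and mt:Cyt-b. The rule gave 101 of the 17807 genes listed: 63 general subunits, 24 like-paralogs (genes named after a subunit with the suffix L), 13 mitochondrially encoded subunits and 1 assembly factor, Sdhaf3. The like-paralogs cover 21 subunits, of which 18 are general subunits in this set and the other three carry names of their own: levy (a subunit of cytochrome c oxidase, paralogs COX6AL and COX6AL2), cype (likewise, paralog COX6CL) and sun (the epsilon subunit of ATP synthase, paralog ATPsynepsilonL). All 24 like-paralogs and all 63 general subunits passed the filter on low counts in testes, and 11 of the 13 mitochondrially encoded genes did.

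Oxidative phosphorylation passes electrons through complexes I to IV of the inner mitochondrial membrane and uses the resulting proton gradient to make ATP at complex V, the ATP synthase. Most subunits are encoded in the nucleus, and a small core is encoded by mitochondrial DNA. In *Drosophila* many nuclear subunits have a duplicate gene that is used mainly in the male germline, where mitochondria are remodelled and fused as spermatids form.

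Bulk RNA-seq compared wild-type flies of the Oregon R strain with chinmoST flies. Testes and ovaries were taken at days 1, 3, 5, 7, 9 and 11 of adulthood, in 36 testis and 33 ovary libraries, with 3 libraries per group except wild-type ovaries of days 1, 7 and 11, which had 2. The chinmoST allele lowers Chinmo, a transcription factor, in the somatic cyst lineage of the testis, where cyst cells then take on features of ovarian follicle cells as the fly ages, and spermatogonia accumulate. The labels give all chinmoST libraries, testes and ovaries alike, a genotype that does not name *chinmo* (Sod1[X-39] with e[1], over the balancer TM3 marked with Sb[1] and Ser[1]), and the youngest libraries carry 0D in their titles and day 1 in their time label; day 1 was used. Each library pooled the gonads of many flies, so a level is an average over all cell types of the organ, and fewer cells of a type cannot be told apart from less RNA per cell.

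Libraries held 32462418 to 181988641 estimated read counts, and members took 1.63% to 5.99% of them. The mutated gene was at 27.2 to 113 TPM (transcript abundance within a library, corrected for gene length) in wild-type testes, with a median of 84.4, and at 31.7 to 91.3 TPM in chinmoST testes, with a median of 57.8, so the whole-testis levels overlapped. In 13 libraries the log2 ratio to the mean library of the tissue fell with gene length (r below -0.25), 4 of them wild-type testis replicate 1 of days 3, 5, 7 and 9 (r = -0.675 to -0.719). Members are short, with a median length of 668.4 nt for general subunits and 657.4 nt for like-paralogs against 1301 nt for all genes, so they lie on the high side of that trend; the counts of calls that rest on these libraries are given with and without them. Wild-type ovary replicate 1 of day 1 held 81.0 TPM of like-paralogs in all against at most 4.7 TPM in the other wild-type ovaries. The sources do not say that counting used strand, and exons of 32 of 63 general subunits overlap another gene against 3 of 24 like-paralogs, so reads of those genes may include reads of the neighbour.

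The first comparison asked where the subunits are used in wild-type flies. All 24 like-paralogs were higher in testis than in ovary, whereas the general subunits that have a like-paralog were mostly lower there. A gene was called where the adjusted p of edgeR's quasi-likelihood test (Benjamini-Hochberg over all genes tested) was under 0.05 and the difference at least 1.5-fold. In wild-type testis the median levels of the like-paralogs ran from 3.97 TPM (COX7AL2) to 776 TPM (COX4L), and in wild-type ovary from 0 to 1.19 TPM. Of all genes tested 49.1% were called higher in testis and 39.6% lower. The 24 like-paralogs were called higher under each alternative setting tried, with adjusted p of 5.25e-07 for COX7AL2 and smaller values for the rest, although 20 of them had at least 1 ovary library at 0 counts and their fitted folds then depend on the prior count.

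**Figure D1:**
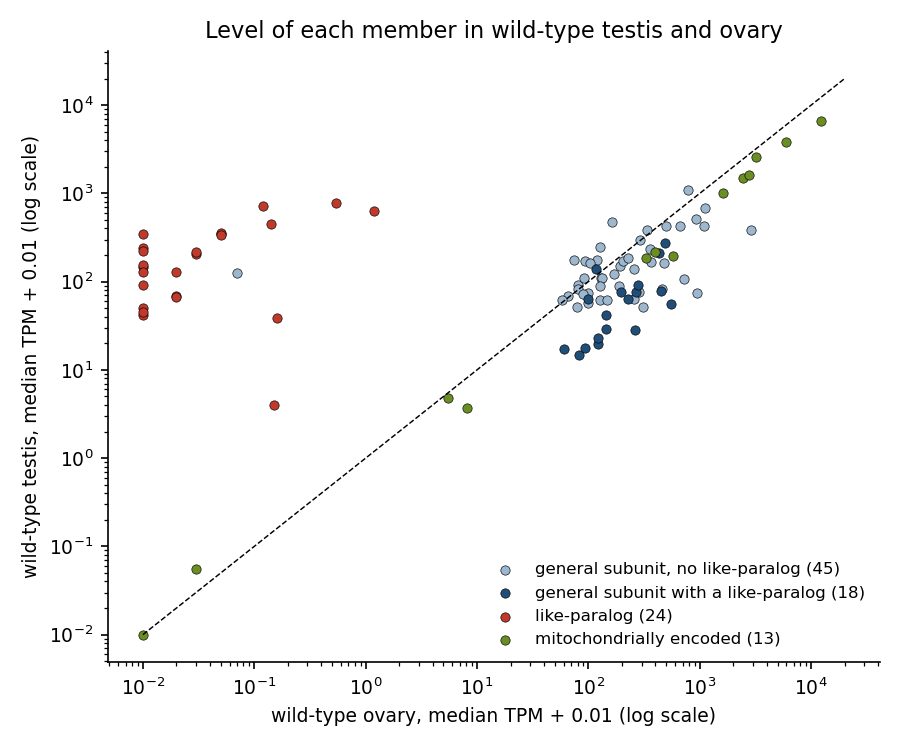
Median TPM of each nuclear and mitochondrial subunit in wild-type testis (18 libraries, vertical axis) against wild-type ovary (15 libraries, horizontal axis), both on log scales after adding 0.01; the dashed line marks equal levels. The like-paralogs stand at the left, at 1.19 TPM or less in ovary, and the pale point among them is ND-B8.

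COX4L, a duplicate of the largest nuclear-encoded subunit of cytochrome c oxidase, was among the most abundant members in testis. It ranged from 508 to 1003 TPM over the 18 wild-type testis libraries (median 776) and from 0.09 to 11.9 TPM over the 15 wild-type ovary libraries (median 0.53), and the groups did not overlap. On the log2 scale the difference was 9.98 ± 0.40 (SE; adjusted p = 3.33e-18, edgeR). COX4 itself, the general form (chromosome 2L, 19958713 to 19960065, BDGP6/dm6), ranged from 28.9 to 49.6 TPM in testis and from 116 to 246 TPM in ovary, again without overlap. COX7AL2 was the least testis-biased paralog, at 1.21 to 23.0 TPM in testis and 0.03 to 0.98 TPM in ovary, a log2 difference of 3.61 ± 0.53. COX7CL and COX7AL, paralogs of small cytochrome c oxidase subunits, and COX4L were the other three with counts in all ovary libraries.

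Among the 18 general subunits with a like-paralog, 16 were called lower in testis and 0 higher, with a median log2 difference of -2.25. ATPsynbeta, the catalytic subunit of ATP synthase, ranged from 35.3 to 71.2 TPM in wild-type testis against 353 to 951 TPM in ovary, a log2 difference of -3.54 ± 0.09 (adjusted p = 9.04e-22, edgeR). UQCR-11, a small subunit of complex III, followed at -3.36 ± 0.33, then COX7C at -2.95 ± 0.29, COX5B at -2.87 ± 0.21 and ND-49, a core subunit of complex I, at -2.84 ± 0.17. SdhA, the flavoprotein of succinate dehydrogenase, was not called, with 117 to 171 TPM in testis and 98.5 to 147 TPM in ovary, nor was COX7A. Of the 45 general subunits without a like-paralog 24 were lower and 6 higher, with a median of -0.62. The median of all genes tested was 0.60 here.

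Directions in this comparison depend on how the libraries are scaled. With DESeq2's size factors the median of all genes moved to 1.81 and the general subunits split into 26 higher and 17 lower, in place of 6 higher and 40 lower; of the 18 with a like-paralog, 2 were then higher and 10 lower. Under that scaling the general subunits with a like-paralog had a median of -1.04 and those without a median of 0.61, both below the median of all genes, as with edgeR. Without replicate 3 the general subunits split into 19 higher and 22 lower.

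ND-B8, named for a general accessory subunit of complex I, was the exception among general subunits (it was singled out after its values were seen). It ranged from 71.6 to 144 TPM in wild-type testis and from 0 to 1.24 TPM in wild-type ovary, with 4 ovary libraries at 0 counts. Its gene (chromosome 2L, 4454626 to 4455207) overlaps Gs1l on the opposite strand. The other 5 general subunits called higher in testis were ND-MWFE, ND-13A, UQCR-Q, SdhD and ND-B22, at log2 differences of 0.66 to 2.19.

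The levels within a pair can be set against each other as the share of a subunit's TPM that comes from its like-paralogs, a ratio within each library that does not depend on library scaling. In wild-type testes the like-paralogs gave more than 50% of the TPM, by the median library, for 18 of 21 subunits, and in every wild-type testis library for 15. The highest shares were those of COX7C (95.7%), SdhB (95.0%), COX4 (94.8%) and cype (93.0%). SdhB is the iron-sulphur subunit of succinate dehydrogenase; its general form stood at a median of 19.7 TPM in wild-type testis beside 357 TPM of SdhBL. The lowest shares were those of ATPsynbeta (45.6%), SdhA (31.7%) and sun (17.1%). Over the 21 subunits the median share was 73.4% to 78.1% at the 6 days in wild-type testes, and in wild-type ovaries it was 0.499% at day 1, where 1 of the 2 libraries is the one with like-paralog RNA, and at most 0.0263% at the later days.

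Age was compared within wild-type testes, where no member was called. From day 1 to day 11, 0 of 63 general subunits, 0 of 24 like-paralogs and 0 of 11 mitochondrially encoded genes were called by edgeR, by DESeq2 0 of 63 and 0 of 24, at a background of 0.664% of all genes called, 0.469% lower. At an unadjusted p under 0.05 the counts were also 0 of 63, 0 of 24 and 0 of 11 with either tool. The error was estimated over all 36 testis libraries, including the wild-type ones low in long genes, which are of other days. The lack of calls therefore does not show that levels were equal. Differences on the log2 scale lay between -0.20 and 0.38 for general subunits and between -0.42 and 0.45 for like-paralogs. Of 6 muscle genes, 5 were lower at day 11 (median -1.20).

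The second set of comparisons followed the chinmoST phenotype. At day 1 few members were called: 0 of 24 like-paralogs and 3 of 63 general subunits were called, with 5.6% of all genes called and 3.38% called lower. At an unadjusted p under 0.05, 2 like-paralogs passed with edgeR, and DESeq2 called 1 (COX6CL, higher). The 3 general subunits called were lower in chinmoST: ND-30, a core subunit of complex I (-1.14 ± 0.24, adjusted p = 0.00287), ND-B17.2, an accessory subunit (-0.77 ± 0.15, adjusted p = 0.000899), and SdhD, a membrane anchor of succinate dehydrogenase (-0.65 ± 0.15, adjusted p = 0.00761, edgeR).

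At days 3 and 5, 14 of 24 like-paralogs and 20 of 63 general subunits were lower in chinmoST testes and 0 were higher, against 16.8% of all genes lower and 12.6% higher. COX4L fell by 1.07 on the log2 scale, and by 0.70 without the 4 wild-type libraries low in long genes. ATPsynCF6L, a paralog of a stalk subunit of ATP synthase, fell by 1.35, and by 0.94 without them. Most of the calls rested on these 4 libraries: without them 4 like-paralogs were lower and 0 higher, and the general subunits split into 5 higher and 7 lower. With a correction for the length trend in place of their removal, 7 like-paralogs and 5 general subunits were lower and 1 general subunit higher.

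At days 9 and 11 the like-paralogs and the general subunits parted. Of the like-paralogs 23 of 24 were lower in chinmoST testes and 1 was higher, with a median log2 difference of -1.40, where 31.4% of all genes were called lower, 34.1% higher and the median gene stood at 0.09. Of the 18 general subunits with a like-paralog, 9 were higher and 0 lower (median 0.62), and of the 45 without, 6 were higher and 5 lower (median -0.13). Of the general subunits whose exons are free of other genes, 8 of 31 were higher and 0 lower. Over all 63 general subunits 15 were higher and 5 lower. At an unadjusted p under 0.05 (edgeR), without the fold limit, 20 were higher and 15 lower. With a correction for the length trend the called genes split into 27 higher and 3 lower, and on log2(TPM + 1) values tested with limma into 22 and 2. The split by like-paralog was made after the values were seen and is a description.

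**Figure D2:**
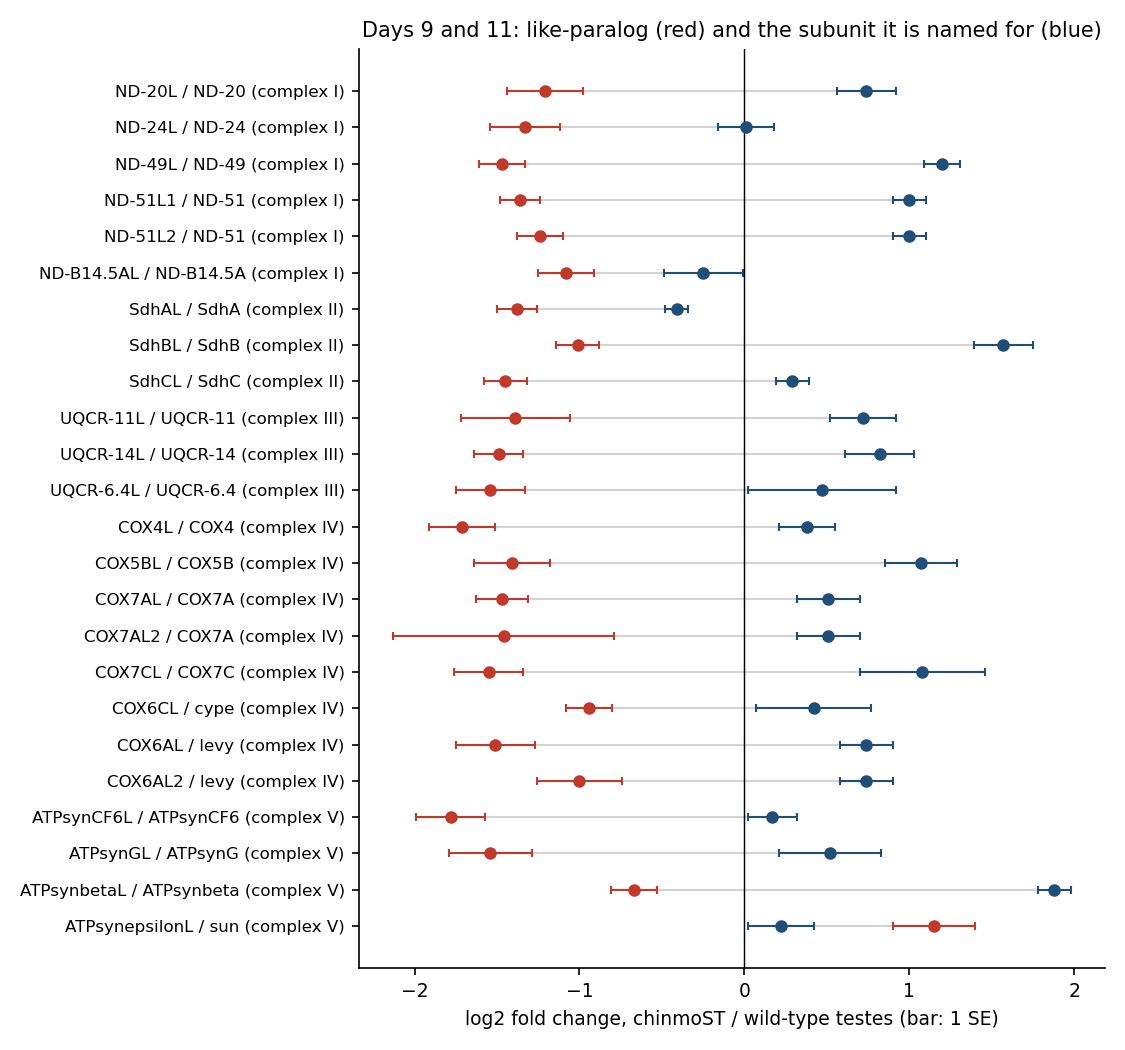
Log2 fold change between chinmoST and wild-type testes at days 9 and 11 for each like-paralog (red) and the subunit it is named for (blue), with bars of 1 SE from edgeR; 6 libraries per genotype, and a subunit with 2 paralogs appears in 2 rows. All paralogs lie left of 0 except ATPsynepsilonL at 1.15, and the subunits lie right of 0 except SdhA at -0.41 and ND-B14.5A at -0.25, with ND-24 at 0.01.

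In complex I all 6 like-paralogs fell. ND-49L ranged from 118 to 159 TPM in the 6 wild-type libraries of days 9 and 11 (median 138) and from 45.6 to 81.9 TPM in the 6 chinmoST libraries (median 57.8). These groups did not overlap, and the log2 difference was -1.47 ± 0.14 (adjusted p = 2.69e-10, edgeR). ND-49 itself, on chromosome 4 (568296 to 571554), went from 14.6 to 17.5 TPM in wild type to 36.7 to 51.9 TPM, higher in every chinmoST library, with a log2 difference of 1.20 ± 0.11 (adjusted p = 1.55e-10). ND-51, which binds the electron-accepting flavin, rose by 1.00 ± 0.10 while its paralogs ND-51L1 and ND-51L2 fell by 1.36 and 1.24, and ND-20 rose by 0.74. The complex also held 4 of the 5 general subunits that fell, none with a like-paralog: ND-B8 (-1.61 ± 0.17), ND-B12 (-0.86), ND-13A (-0.83) and ND-15 (-0.77). ND-75, the largest core subunit, was at 0.09 ± 0.07 and was not called. ND-B12, ND-13A and ND-15 were no longer called with a correction for the length trend.

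In complex II the 3 like-paralogs fell by 1.01 (SdhBL), 1.38 (SdhAL) and 1.45 (SdhCL). SdhB stood at 18.1 to 31.3 TPM in wild type and at 69.1 to 92.5 TPM in chinmoST, a log2 difference of 1.57 ± 0.18 (adjusted p = 9.24e-09). All chinmoST values lay above all wild-type values. SdhA differed by -0.41 ± 0.07, under the 1.5-fold limit, and SdhD, which has no like-paralog, fell by 1.18 ± 0.11. The assembly factor Sdhaf3 was called lower, at -0.61 ± 0.21, but lost the call with the length correction (0.04).

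In complex III UQCR-11L, UQCR-14L and UQCR-6.4L fell by 1.39, 1.49 and 1.54. UQCR-14 rose by 0.82 ± 0.21 and UQCR-11 by 0.72 ± 0.20, while UQCR-C1, a core subunit, was at -0.47 ± 0.08 and not called. UQCR-11L was high in the 4 wild-type libraries low in long genes: at day 9 replicate 1 held 260 TPM and replicates 2 and 3 held 146 and 142 TPM.

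In complex IV all 8 like-paralogs fell, by 0.94 (COX6CL) to 1.71 (COX4L). COX4L was at 746 to 845 TPM in wild-type and 229 to 389 TPM in chinmoST testes at days 9 and 11, with no overlap. At day 1 the values had been 663, 816 and 750 TPM in wild type and 613, 564 and 604 TPM in chinmoST, so all 3 mutant values lay below wild type, by a difference that was not called (-0.21 ± 0.27). At day 11 the mutant held 237, 319 and 274 TPM and wild type 827, 845 and 746 TPM. The log2 difference at days 9 and 11 was -1.71 ± 0.20 (adjusted p = 1.26e-08). COX4 went in the chinmoST libraries from 25.8, 20.3 and 24.0 TPM at day 1 to 84.3, 77.4 and 79.2 TPM at day 11. Its log2 difference at days 9 and 11, 0.38 ± 0.17, was under the 1.5-fold limit. COX7B, which has no like-paralog, showed the largest difference among the general subunits of the complex, with 68.3 to 164 TPM in wild type and 323 to 476 TPM in chinmoST (1.87 ± 0.32). COX7C rose by 1.08 ± 0.38, COX5B by 1.07 ± 0.22 and COX8 by 0.96 ± 0.30. COX5B and COX5BL are neighbours on the same strand of chromosome 2L (6557800 to 6559308 and 6559431 to 6560133), and their log2 differences had opposite signs, 1.07 and -1.41. Leaving out replicate 2 or 3 ended the call of COX7C, and leaving out replicate 2 that of COX8.

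In complex V ATPsynbeta had a log2 difference within error of that of COX7B. Its 6 wild-type libraries of days 9 and 11 held 52.0 to 71.2 TPM and its 6 chinmoST libraries 229 to 322 TPM, a log2 difference of 1.88 ± 0.10 (adjusted p = 1.01e-14). The chinmoST testes of day 1 held 51.7, 51.8 and 61.3 TPM, those of day 7 held 144, 193 and 139 TPM, and those of day 11 held 322, 261 and 261 TPM. ATPsynC, which forms the rotating membrane ring, rose by 1.63 ± 0.09, and ATPsyndelta and ATPsyngamma of the central stalk by 1.52 ± 0.18 and 0.88 ± 0.18. ATPsynD of the peripheral stalk rose by 0.80 ± 0.19. ATPsynCF6L fell by 1.78 ± 0.21, the lowest value of any like-paralog, and ATPsynGL by 1.54. ATPsynbetaL fell by 0.67 ± 0.14 and was under the 1.5-fold limit with library size alone (-0.47).

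ATPsynepsilonL was the like-paralog that rose. In wild-type testes it was at 24.8, 34.5 and 27.0 TPM at day 1 and at 42.7, 44.1 and 38.6 TPM at day 11, and in chinmoST testes at 24.9, 26.4 and 31.8 TPM at day 1 and at 189, 133 and 127 TPM at day 11. The genotypes overlapped at day 1, and all chinmoST values lay above wild type at day 11. Over the libraries of days 9 and 11 together the genotypes overlapped. At day 9 alone no like-paralog was higher at an unadjusted p under 0.05 (edgeR). The highest log2 difference of any like-paralog was 0.54 at day 9 and 1.77 at day 11. The log2 difference at days 9 and 11 was 1.15 ± 0.25 (adjusted p = 0.000163, edgeR), and the gene was called higher under each alternative. It differs from most other like-paralogs in wild type too, with a low share of its pair. Its gene lies on chromosome 3R (10121773 to 10122320) and shares no exon with another gene.

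**Figure D3:**
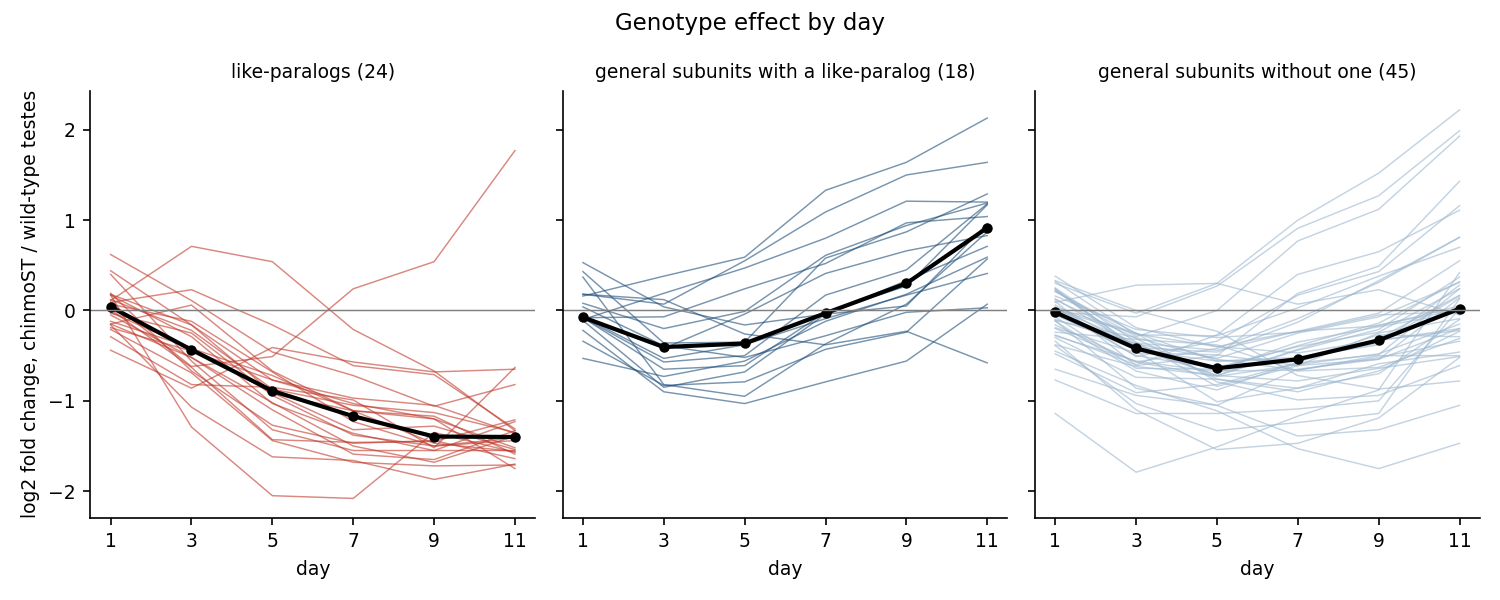
Log2 fold change between chinmoST and wild-type testes at each day (edgeR, 3 libraries per genotype and day); thin lines are genes and the black line with points is the median. The like-paralogs move from a median of 0.04 at day 1 to -1.40 at days 9 and 11, the general subunits with a like-paralog reach 0.92 at day 11, and those without one reach 0.02.

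The medians of the classes moved apart with age. The medians of the like-paralogs were 0.04, -0.44, -0.89, -1.17, -1.40 and -1.40 at days 1, 3, 5, 7, 9 and 11. Those of the general subunits with a like-paralog were -0.08, -0.40, -0.36, -0.03, 0.30 and 0.92 on the same days. The values of days 3 to 9 include wild-type replicate 1, which is low in long genes, and day 11 holds no such testis library. Day 11 is not free of a length trend, though. Its chinmoST testes were high in long genes, at r = 0.315, 0.251 and 0.304, against 0.036, -0.077 and -0.028 in wild type. Over days 3 and 5 together the median of the like-paralogs was -0.62 with the 4 libraries and -0.34 without them, and that of the general subunits with a like-paralog -0.40 and 0.09. The change of the genotype effect from day 1 to days 9 and 11 was tested in the same model: 21 of 24 like-paralogs were called lower and 1 higher, and 13 of 63 general subunits higher and 4 lower, against 27.0% of all genes lower and 29.6% higher. With the length correction the general subunits split into 34 higher and 1 lower, on log2(TPM + 1) values into 26 and 2, without replicate 2 into 5 and 3, and without replicate 3 into 8 and 1. Of the like-paralogs, 20 were lower and 0 higher without replicate 2. ATPsynbeta changed by 1.72 ± 0.17 and ATPsynC by 1.65 ± 0.15. The wild-type and chinmoST libraries of days 9 and 11 enter both this test and the comparison of days 9 and 11, so the calls are not independent.

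The summed levels were also compared per library. The like-paralogs summed to 5597.8, 5940.8 and 5747.3 TPM in wild-type testes at day 1 and to 5615.2, 5818.8 and 5778.9 TPM in chinmoST testes. At day 11 the sums were 5968.5, 6112.3 and 5862.0 TPM in wild type and 2479.7, 3077.6 and 2779.8 TPM in chinmoST. The general subunits summed to 10419.7, 11610.9 and 11109.9 TPM in wild type at day 11 and to 17226.7, 16409.3 and 16046.0 TPM in chinmoST. At day 11 neither class overlapped. At day 9 the like-paralog sums did not overlap, but the general-subunit sums did (10391.7 to 12428.8 TPM in wild type and 11976.4 to 13212.1 TPM in chinmoST). At day 3 the general-subunit sums were lower in chinmoST (7562.0 to 8641.2 TPM) than in wild type (9684.3 to 12338.2 TPM). Wild-type ovaries lay at 17793.2 to 24479.5 TPM.

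**Figure D4:**
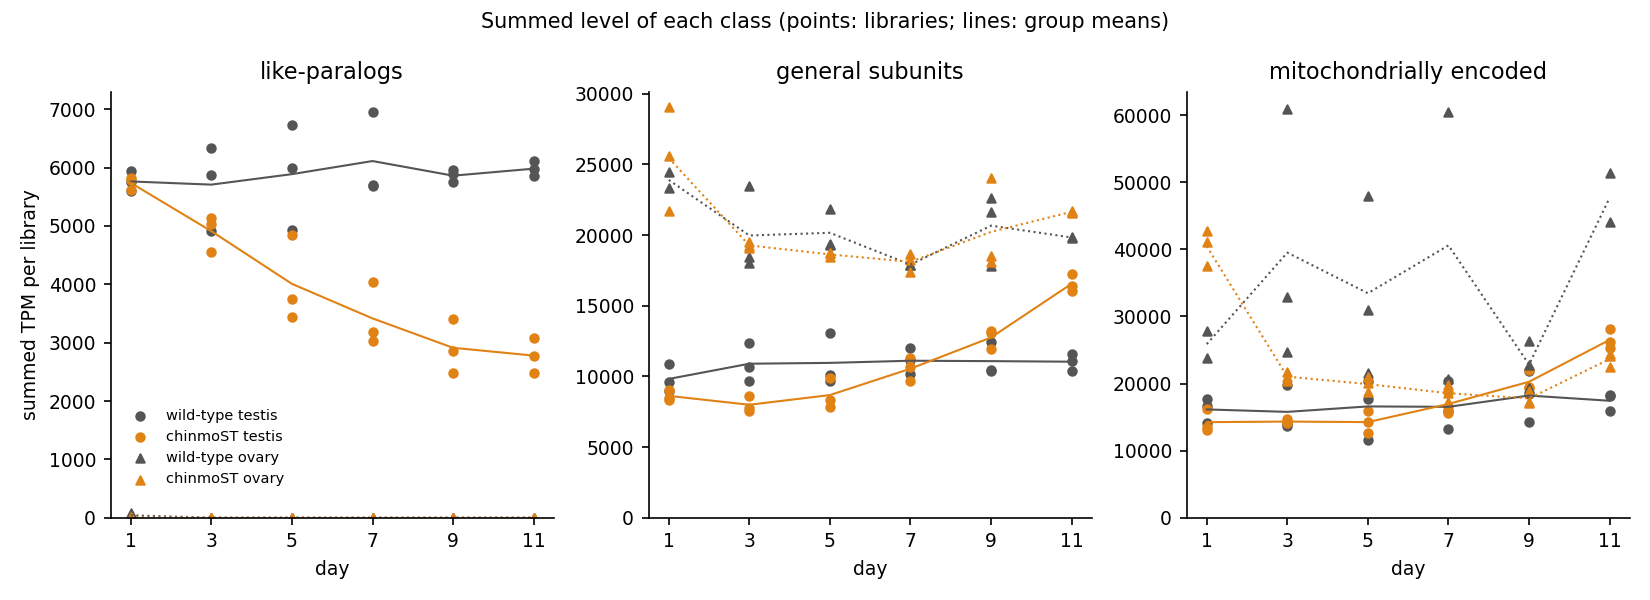
Summed TPM of the 24 like-paralogs, 63 general subunits and 13 mitochondrially encoded genes in each library (points; circles testis, triangles ovary) by day, with group means as lines. In chinmoST testes the like-paralog sum fell to 2479.7 to 3077.6 TPM by day 11 while the general-subunit sum rose to 16046.0 to 17226.7 TPM.

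Within pairs, the share of TPM given by the like-paralogs was lower in all 6 chinmoST testes than in all 6 wild-type testes of days 9 and 11 for 19 of 21 subunits. The like-paralogs gave more than 50% for 9 of 21 subunits by the median chinmoST library, against 18 in wild type. The share of ATPsynbeta ran from 41.2% to 50.8% in wild type and from 9.48% to 13.7% in chinmoST. For levy it ran from 61.2% to 67.7% and from 22.0% to 39.0%, and for ND-49 from 87.1% to 90.8% and from 49.8% to 63.4%. For COX4, where both forms together were dominated by COX4L, it ran from 93.9% to 95.1% and from 73.7% to 84.6%. The share of sun, the subunit of ATPsynepsilonL, was higher instead, with 16.9% to 20.4% in wild type and 23.1% to 36.7% in chinmoST, and that of ND-B14.5A overlapped. Over the 21 subunits the median share in chinmoST testes was 81.9% on the first day sampled, 69.9% at day 5, 57.1% at day 7 and 41.9% at the end.

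**Figure D5:**
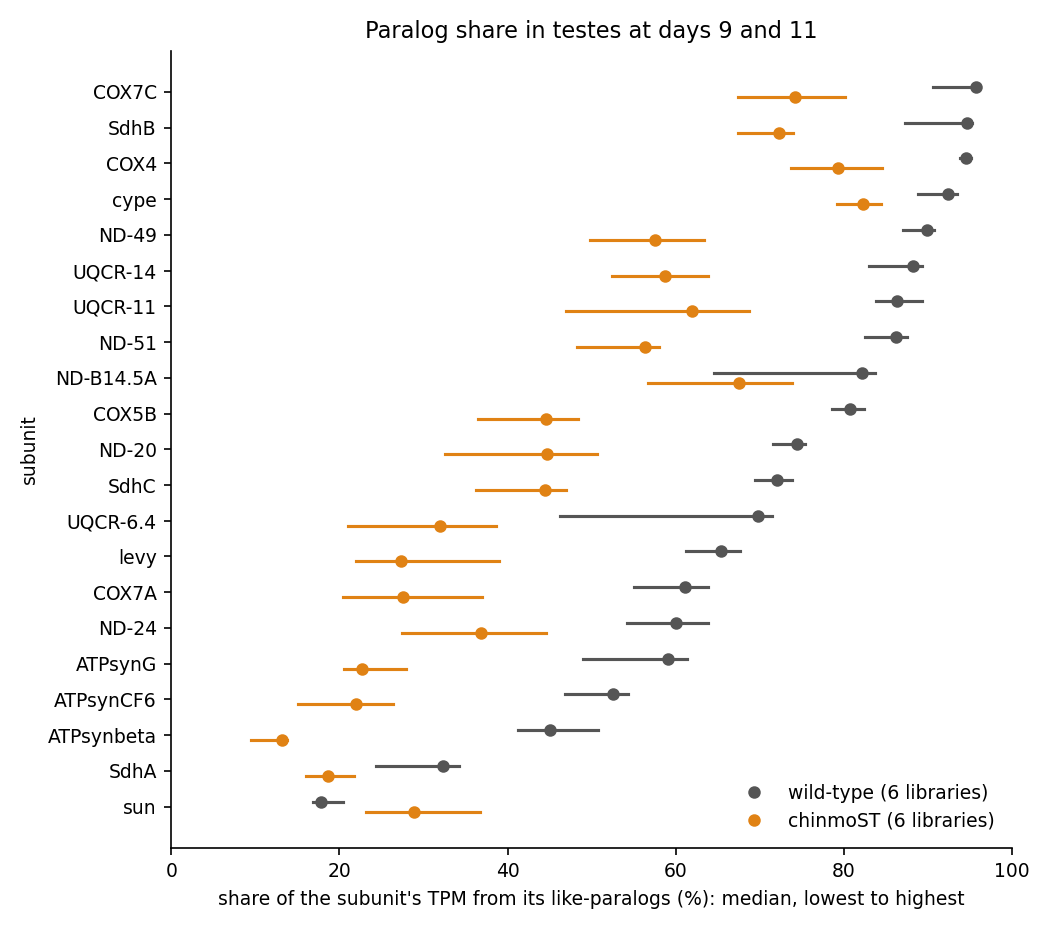
Share of each subunit's TPM that came from its like-paralogs in testes at days 9 and 11; points are medians over 6 libraries and lines run from the lowest to the highest library. The chinmoST range lies below the wild-type range for 19 of 21 subunits, above it for sun, and overlaps it for ND-B14.5A.

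Of the genes of the same pathway with other names, 4 of 11 were higher at days 9 and 11 and 3 lower, shares near those of all genes tested (34.1% higher and 31.4% lower). Cyt-c-p, the general cytochrome c, rose by 1.45 ± 0.17, with 96.6 to 163 TPM in wild type and 295 to 484 TPM in chinmoST, while Cyt-c-d, the testis form, fell by 1.42 ± 0.14, from 937 to 1067 TPM to 349 to 560 TPM. Cyt-c1, the cytochrome subunit of complex III, rose by 1.48 and Cyt-c1L fell by 1.02. Blw, the alpha subunit of ATP synthase, rose by 1.08 and levy by 0.74, and knon, a testis relative of ATPsynD, fell by 1.41. Among carriers and pores 4 of 6 rose and 1 fell: sesB, the ADP/ATP exchanger, rose by 1.75 and Porin2 fell by 1.28. Of 11 enzymes of the citric acid cycle 6 rose and 2 fell, against the same shares of all genes, led by Fum1 (fumarase, 2.12) and Idh3a (1.93). Of 10 genes for mitochondrial DNA and biogenesis 8 rose and 0 fell, where 34.1% of all genes were higher. They included mtSSB, which binds single-stranded mitochondrial DNA (4.39 to 14.6 TPM in wild type and 49.2 to 86.7 TPM in chinmoST), the fly PGC-1 homologue srl (2.72 to 5.85 and 18.7 to 53.9 TPM) and mtDNA-helicase (2.42 on the log2 scale).

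Of the mitochondrially encoded genes 2 of 11 were called at days 9 and 11, where 34.1% of all genes were higher and 31.4% lower. The gene mt:ND3 was higher (0.66 ± 0.25) and mt:ATPase6 lower (-0.71 ± 0.18). The summed level of all 13 was 15874.5 to 18293.8 TPM in the wild-type and 25344.4 to 28068.4 TPM in the chinmoST testes of day 11, without overlap. The sums overlapped at day 1 (14178.7 to 17640.2 and 13048.9 to 16223.3 TPM) and at day 9 (14245.6 to 21951.7 and 19418.0 to 21970.5 TPM). Between wild-type testis and ovary 10 of 11 were lower in testis by edgeR, where 39.6% of all genes were lower, and 1 by DESeq2, whose scaling differs. Wild-type ovary libraries low in long genes, with up to 18.1% of counts from mitochondrial genes, enter this comparison. The summed levels overlapped, at 11658.2 to 21951.7 TPM in wild-type testes and 19366.9 to 60983.7 TPM in wild-type ovaries. The libraries were made by poly(A) capture. The gene mt:ATPase8 was at 0 counts in all 18 wild-type testis libraries. It is 162 nt long and overlaps mt:ATPase6 on the same strand, and the reason for its 0 counts was not tested.

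Markers of cell types moved with genotype at the same days, where 34.1% of all genes were higher and 31.4% lower. The 4 markers of late spermatocytes were all lower (median -1.17), with a summed level of 617 to 800 CPM (counts scaled to library size) in wild-type and 333 to 435 CPM in chinmoST testes. In wild-type ovaries of these days the same 4 genes summed to 2260 to 4390 CPM, so their sum is not specific to spermatocytes. The 4 matched markers of germline stem cells and spermatogonia were all higher (55.5 to 68.5 CPM and 358 to 541 CPM), as were 4 of 5 cyst lineage markers (79.0 to 89.5 and 173 to 291 CPM), 9 of 10 follicle cell and eggshell genes (2.50 to 10.5 and 8.97 to 156 CPM) and 6 of 6 muscle genes (162 to 262 and 350 to 668 CPM). The sums of the follicle cell and eggshell genes overlapped, and wild-type ovaries of these days held 4400 to 34000 CPM of them. Early spermatocyte markers had 2 of 5 lower, with overlapping sums (186 to 243 and 178 to 227 CPM). Of 5 oocyte and nurse cell RNAs 3 were higher and 1 lower, but their summed level was lower (4640 to 4970 and 1950 to 3420 CPM). Wild-type ovaries of these days held 1680 to 3330 CPM, less than wild-type testes, so this sum does not measure oocytes or nurse cells. Of 2 genes of the male gonad epithelium 1 was higher, with overlapping sums (3960 to 9990 and 7050 to 12800 CPM). The sums of 8 accessory gland genes overlapped (15.2 to 223 and 6.31 to 330 CPM). No marker of these lists was at 0 in a whole group of testes at these days, and the part of each cell type in the differences above was not tested.

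In ovaries the genotypes differed less clearly. Of 62 general subunits tested, 18 were lower in chinmoST and 0 higher, against 13.8% of all genes lower and 14.3% higher, and 9 of 11 mitochondrially encoded genes were lower. These counts rest on few libraries: 5 wild-type ovary libraries low in long genes held 12.9% to 18.1% of counts from mitochondrial genes, and without the 13 such libraries (and without day 11, where both wild-type ovaries are among them) 3 general subunits and 1 mitochondrially encoded gene were lower. Without replicate 2 edgeR called 0 of 63 general subunits, and 9 passed an unadjusted p under 0.05. Among the 7 like-paralogs tested COX7AL and COX7CL were lower. COX7CL was at 10.4 TPM in the library with like-paralog RNA, at 0.17 to 2.84 TPM in the other wild-type ovaries and at 0 to 0.58 TPM in chinmoST ovaries; its exons overlap sel on the opposite strand. Muscle genes were higher in chinmoST ovaries, 6 of 6.

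The genotype effect over all days differed between testes and ovaries for 11 general subunits that were more positive in testes and 5 that were more negative, against 17.8% and 13.1% of all genes. ATPsynbeta was at 0.84 ± 0.10 (adjusted p = 5.2e-10) and SdhB at 0.95 ± 0.16. With DESeq2 the split was 5 and 10, so the direction of the class as a whole depended on scaling; of the 18 with a like-paralog, 6 were positive and 0 negative, and 4 and 0 with DESeq2. Like-paralogs, near 0 in ovaries, gave 2 calls each way, but 1 positive and 12 negative without replicate 1 of the wild-type ovaries of day 1, the library with like-paralog RNA.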

How the data were processed

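Poly(A) RNA of 69 libraries (36 testis, 33 ovary) was sequenced by the study. The authors trimmed reads with Trim Galore 0.6.4 after FastQC 0.11.9 and quantified genes on dm6 with RSEM and Bowtie2, whose versions are not given in the sources used here. The deposited files hold 1 expected count (an estimated count that need not be whole), 1 TPM and 1 FPKM value per gene and library. The deposited FPKM values were not used. Expected counts were rounded and tested with edgeR 4.0.16 (quasi-likelihood, TMM, filter on low counts) in R 4.3.3. Each comparison was fitted over all groups of the tissue or tissues compared, and p-values were adjusted by Benjamini-Hochberg over all genes tested. The sources used here state no test for these libraries. A call needed an adjusted p under 0.05 and a 1.5-fold difference. TPM served for levels and, with a pseudocount of 1, for limma 3.58.1; DESeq2 1.42.0 was an alternative. The fits were tested on simulated data.

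Of 17807 gene IDs 17710 had a symbol. Coordinates and exons are from the Ensembl BDGP6 annotation. Named genes were all like-paralogs and the subunits they are named for, the called general subunits with the highest and lowest changes in each complex, a fixed core subunit per complex, and genes of fixed pathway lists; others are said to be chosen after their values were seen or are given to complete a count. The members and lists were chosen with earlier results of these data known. Nothing in the labels says that libraries of a group came from separate cultures of flies, so p-values measure the spread between these libraries. No library was a repeat of another: over 66 replicate pairs, chi-square divided by the number of genes was 13.4 or more. A count of 0 allows up to 0.0165 to 0.0924 CPM by library (3 counts), for counting error only.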

Additional observations from a re-analysis of the deposited data

Results flagged for a closer look

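By an interaction term in edgeR, the genotype effect in testes differed between day 1 and days 9 and 11. It was higher for 1 like-paralog (ATPsynepsilonL) and lower for 21. Without replicate 2 it was lower for 20 like-paralogs and higher for 0, also at an unadjusted p under 0.05 (edgeR). For the 63 general subunits, 13 were higher and 4 lower, where 29.6% of all genes were higher and 27.0% lower. The genotype effect also differed between testes and ovaries, by the same kind of test. For 2 like-paralogs (COX7AL and COX7CL) it was higher in testes relative to ovaries, and for 2 (COX4L and COX7AL2) lower. It was higher for 11 of 63 general subunits and lower for 5, where 17.8% of all genes were higher and 13.1% lower. Of 12 mitochondrially encoded genes 6 were higher, and 4 were called with DESeq2. The wild-type ovary libraries low in long genes, some with many mitochondrial counts, enter this comparison. Without the wild-type ovary library with like-paralog RNA, 1 like-paralog was higher and 12 were lower in that last comparison.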

How the results depend on the processing

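Of 1580 values of named genes under alternatives 1460 kept their direction and call, 62 lost the call, 39 gained it and 19 turned. The counts of like-paralogs called at days 9 and 11 and between wild-type testis and ovary stayed within 1.5 times under each alternative run. At day 1, where 3 general subunits were called, fitting only the groups compared gave 1, leaving out the libraries low in long genes 5, and leaving out 1 library at a time up to 5; for like-paralogs (0 called) DESeq2 and the fit of only these groups gave 1 each. At days 3 and 5, general subunits (20) numbered 39 by adjusted p alone, 10 on log2(TPM + 1), 6 with the length correction, and 12 without the 4 wild-type libraries or without all 13 libraries low in long genes. Like-paralogs (14) numbered 7 on log2(TPM + 1), 7 with the length correction, 4 without the 4 libraries, with or without that correction, 4 without the 13, and 8 to 10 without a replicate. At days 9 and 11, general subunits (20) numbered 35 by adjusted p alone and 32 with the length correction and without the 4 libraries. For the change from day 1, general subunits (17) numbered 28 on log2(TPM + 1), 35 with the length correction, 36 with it and without the 4 libraries, 27 without the 13, and 8 to 25 without a replicate. In ovaries, general subunits (18) numbered 38 by adjusted p alone, 9 with library size alone, 3 on log2(TPM + 1), 3 without the libraries low in long genes, and 0 to 29 without a replicate, and like-paralogs (2) 1 on log2(TPM + 1), 1 without the libraries low in long genes and 1 without the ovary library with like-paralog RNA. For testes against ovaries, general subunits (16) numbered 9 to 29 without a replicate; like-paralogs (4) numbered 9 on log2(TPM + 1), 1 without the libraries low in long genes, 13 without that ovary library and 2 to 10 without a replicate. Where a group was left with 1 library, it was assumed to vary like the others, and the filter on low counts then kept more genes. The causes were not tested.

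At days 9 and 11 ND-24 (0.01) turned to -0.10 with no filter, -0.04 with DESeq2, -0.03 with only the groups compared, and between -0.06 and 0.05 without a replicate; ND-B14.5A (-0.25) to 0.06 on log2(TPM + 1), 0.39 with the length correction and 0.45 with it and without the 4 libraries; and Sdhaf3 (-0.61) to 0.04 in both length corrections. Between testis and ovary ND-24 (-0.83) turned to 0.39 with DESeq2 and lay between -0.72 and 0.03 without a replicate, ATPsynCF6 (-1.15) to 0.06 with DESeq2, and COX7A (-0.41) to 0.28 without mitochondrial genes in library sizes, 0.13 with no filter, 0.77 with DESeq2, -0.37 to 0.27 without a replicate, and 0.22 without that ovary library. Alternatives without libraries low in long genes other than the 4, and the one without the ovary library alone, were chosen after seeing the data.

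Replicate numbers did not pair the samples: the mean correlation of same-numbered libraries was 0.02 in testes (-0.424 to 0.311) and -0.01 in ovaries. With the number as a block, 1 like-paralog was called at day 1, and 20 general subunits at days 3 and 5 and 22 at days 9 and 11.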

Other observations

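Enzymes of the citric acid cycle and genes for mitochondrial DNA and biogenesis were also compared between wild-type organs. In testis against ovary 9 of 11 citric acid cycle enzymes were lower and 1 higher by edgeR, and 10 of 10 genes for mitochondrial DNA and biogenesis were lower, where 39.6% of all genes were lower. With DESeq2's scaling 5 of the enzymes were lower and 2 higher, and 7 of the genes for mitochondrial DNA and biogenesis were lower and 0 higher.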
